A study of Mus musculus with 3 samples.

Results

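The 3p arms of the miR-290 to miR-295 cluster are the 7 mature miRNAs that come from the 3′ side of the hairpins of miR-290, miR-291a, miR-292, miR-291b, miR-293, miR-294 and miR-295. They were taken by name from the miRNAs that the files list, and all 7 were found among the 693 listed. The study sequenced the short RNA of TAG1, a mouse ES cell line, under 3 conditions, each represented by a single library. TAG1 derives from the J1 line and carries a constitutively active receptor, Alk4*, that doxycycline (Dox) switches on. The Control library is from untreated cells. For the SB library the inhibitor SB-431542, spelled SB-431541 in the labels, was added at 30 µM during 16 hrs to block the phosphorylation of Smad2/3. For the Dox library that treatment was followed by 12 hrs with Dox at 1 µg/µl, which turns on Alk4* and through it the phosphorylation of Smad2/3. All cultures contained LIF. The Control cells were in medium with fetal bovine serum and the SB and Dox cells in medium with Knockout Serum Replacement. Medium and treatment therefore cannot be told apart in any comparison with the Control library. The Dox cells were also treated for 12 hrs longer than the SB cells, and no cells without Alk4* were sequenced after Dox. Between the SB and Dox libraries, Alk4*, Dox itself and the added time thus cannot be told apart.

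A hairpin precursor is cut to a short duplex, and usually 1 of the strands is loaded into the silencing complex while the other is degraded. The loaded strand recognises mRNAs mainly through its seed, bases 2 to 8 counted from the 5′ end. The hairpins of miR-290 to miR-295 are transcribed together as 1 primary transcript, which is among the most abundant sources of miRNAs in mouse ES cells and is shut off as these cells differentiate. The 3p arms with the seed AAGUGCU belong to the ES cell cycle family, which is known to promote the passage from G1 to S phase by repressing inhibitors of the cell cycle. The miR-302 family has the same seed and becomes abundant in later, primed pluripotent cells.

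Of the 7 miRNAs, 6 have a mature sequence in RefSeq for GRCm38, where miR-290-3p is named miR-290a-3p, and they are shown here because they separate the members by seed. The capitals mark the seed.
miR-290-3p: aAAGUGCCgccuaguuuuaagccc
miR-291a-3p: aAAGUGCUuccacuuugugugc
miR-291b-3p: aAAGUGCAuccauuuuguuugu
miR-293-3p: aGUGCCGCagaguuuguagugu
miR-294-3p: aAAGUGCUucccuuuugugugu
miR-295-3p: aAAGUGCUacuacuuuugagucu
The member without an entry is miR-292-3p. The seed of miR-290-3p is AAGUGCC and that of miR-291b-3p is AAGUGCA, while miR-291a-3p, miR-294-3p and miR-295-3p share the seed AAGUGCU. In miR-293-3p the bases AGUGC stand at positions 1 to 5, whereas in the other 5 they stand at positions 3 to 7, so that its seed is GUGCCGC. Among the 517 listed miRNAs with a RefSeq sequence, 23 (4.45%) hold AGUGC within their first 8 bases. The closest pairs are miR-291a-3p with miR-294-3p and miR-291b-3p with miR-294-3p, which have the same base at 19 of 22 positions. The longest run of bases that any of the 6 shares with another of these 517 is 11. This is below the 17 bases of the shortest reads that the authors mapped. No mapped read that lies inside 1 of these 6 sequences thus matches another of the 517, and the other listed miRNAs were not compared.

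All 7 hairpins stand within 2216 bases of chromosome 7 on the + strand of GRCm38, from 3218626 to 3220841. In their order along the transcript the hairpin of miR-290 (Mir290a, 3218626 to 3218708) is followed by those of miR-291a (3218919 to 3219000), miR-292 (3219189 to 3219270), miR-291b (3219482 to 3219560), miR-293 (3220343 to 3220422), miR-294 (3220641 to 3220724) and miR-295 (3220773 to 3220841). The widest gap, 782 bases, stands between miR-291b and miR-293, and the narrowest, 48 bases, between miR-294 and miR-295. In the GENCODE annotation 6 of the 7 hairpins, all but that of miR-290, lie opposite an exon of Nlrp12 on the − strand, within its UTR.

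The files give each miRNA in rpm, the number of reads scaled by the authors to a library of 1000000 reads, and the reads behind each value were recovered from the step between values. Reads on listed miRNAs numbered 3102292 in the Control library, 2739358 in the SB library and 3302828 in the Dox library, which is 28.3%, 24.1% and 33.4% of the reads used for the scaling. In rpm the median log2 ratio over all listed miRNAs was −0.19 for SB over Control, 0.38 for Dox over SB and 0.19 for Dox over Control, and each ratio of a member is to be read beside these medians. Intervals are exact 95% intervals that cover counting error only, and no condition had a replicate, so no test of a condition was possible. A member met the criteria of the study's methods when the higher rpm exceeded the lower by at least 25% and the Z-score of the reads lay outside the central 95% of a normal distribution. The Z-score compares 2 libraries, not 2 conditions. As a check of the cell type, 8 ES cell miRNAs other than those of the cluster (miR-302a-3p to miR-302d-3p, miR-367-3p, miR-200c-3p, miR-141-3p and miR-429-3p) were all listed and summed to 252.3 rpm, 184.9 rpm and 264.4 rpm in the Control, SB and Dox libraries. They went both ways, with 2 higher and 3 lower in SB than in Control by the criteria, against 15.3% and 30.2% of all listed miRNAs. In Dox 4 were higher and 4 lower than in SB, against 41.7% and 17.9%. A list of 14 miRNAs known from fibroblasts was also listed in full and summed to 3665 rpm, 8979 rpm and 4178 rpm. Of these 14, 13 met the criteria as higher in SB than in Control, against 15.3% of all listed miRNAs, and 12 as lower in Dox than in SB, against 17.9%, with median log2 ratios of 1.59 and −2.49. In the same order of libraries, the list for neurons (2 of 2 listed) summed to 1775, 1545 and 2344 rpm and that for muscle (3 of 3) to 44.0, 95.1 and 54.7 rpm. The muscle sum follows miR-206-3p (4.02, 45.4 and 4.04 rpm), the only one of its 3 to meet the criteria in SB over Control. The list for blood (1 of 3, with miR-142-3p and miR-223-3p not listed) had 4.47, 2.99 and 22.1 rpm.

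The 3p arms covered a wide range of levels. miR-293-3p had 19525 rpm in the Control library, 18792 rpm in the SB library and 26448 rpm in the Dox library. It was the third most abundant of all listed miRNAs in the Control library and the second in the other two. miR-295-3p came next among the members with 6274, 6906 and 7866 rpm, which placed it at rank 10, 8 and 9. miR-294-3p had 4449, 5839 and 3682 rpm. miR-292-3p stood close to it in the Control library with 4387 rpm, had 6146 rpm in the SB library and was below it with 2740 rpm in the Dox library. The order of miR-292-3p and miR-294-3p thus turned between libraries, with 0.986 reads of miR-292-3p per read of miR-294-3p (0.974 to 0.999) in Control, 1.05 (1.04 to 1.06) in SB and 0.744 (0.732 to 0.756) in Dox. miR-291a-3p was about an order of magnitude lower, with 484.4, 578.3 and 311.4 rpm. The 2 remaining members were scarce. miR-290-3p had 16.7 rpm (14.4 to 19.3), 21.0 rpm (18.4 to 23.8) and 16.7 rpm (14.2 to 19.4), from 183, 238 and 165 reads. miR-291b-3p had 3.38 rpm (2.38 to 4.66), 2.73 rpm (1.86 to 3.88) and 4.04 rpm (2.89 to 5.50), from 37, 31 and 40 reads, and its intervals overlapped in all 3 libraries. The plot of levels by library shows miR-293-3p on top and miR-290-3p and miR-291b-3p lowest in all 3 libraries, with miR-291a-3p next above them.

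**Figure D1:**
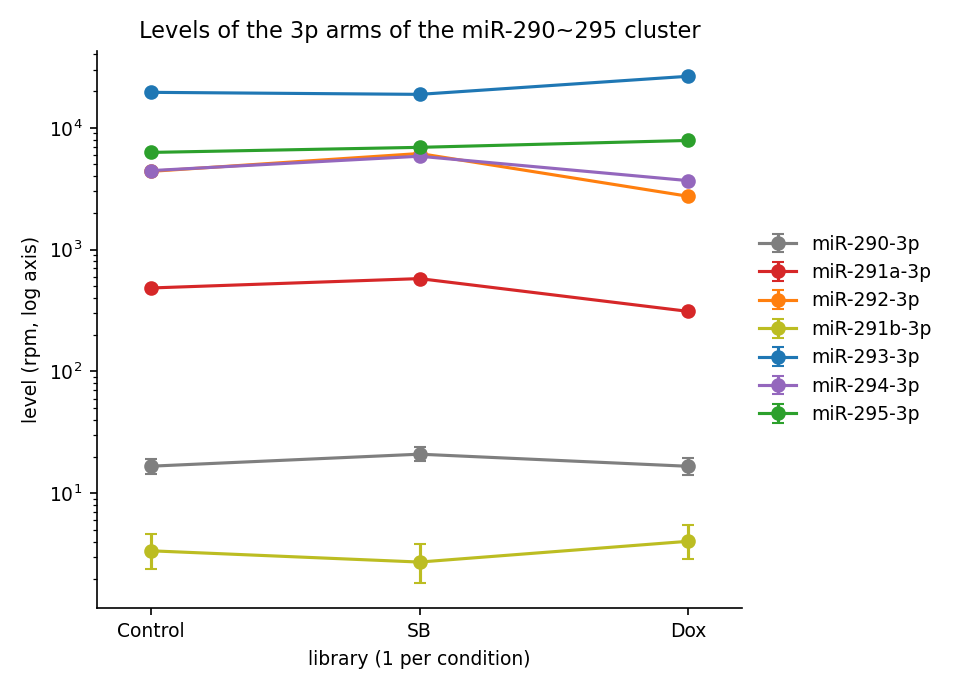
Level of each 3p arm in rpm (log axis) in the Control, SB and Dox libraries, 1 library per condition; bars are exact 95% Poisson intervals and are smaller than the points where not seen. miR-293-3p stays on top, between 18792 and 26448 rpm, miR-291b-3p stays lowest, between 2.73 and 4.04 rpm, and miR-291a-3p, miR-292-3p and miR-294-3p are lowest in the Dox library.

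Summed over the 7 members, the 3p arms made 35140 rpm (35029 to 35251) in the Control library, 38285 rpm (38171 to 38399) in the SB library and 41068 rpm (40942 to 41195) in the Dox library. The log2 ratio of this sum was 0.12 for SB over Control, 0.10 for Dox over SB and 0.22 for Dox over Control. As a share of the reads on listed miRNAs the order was different, with 12.4% (12.37 to 12.45) in Control, 15.9% (15.83 to 15.91) in SB and 12.3% (12.27 to 12.34) in Dox. Scaled in that way the log2 ratio for Dox over SB was −0.37, so the direction of the sum between these libraries depended on the scaling. The direction also turned on miR-293-3p, the most abundant member. Without miR-293-3p the 6 other members summed to 15614, 19492 and 14620 rpm, with log2 ratios of 0.32, −0.41 and −0.095.

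Between the Control and SB libraries, the comparison that asks what follows when Smad2/3 phosphorylation is blocked, 3 of the 7 members met the criteria as higher in SB and none as lower. Among all listed miRNAs, 15.3% were higher by the criteria and 30.2% lower. The members' median log2 ratio was 0.26, against −0.19 over all listed. miR-292-3p had a log2 ratio of 0.49 (0.47 to 0.50) and a Z-score of 57.3. miR-294-3p, one of the main carriers of the cell cycle seed, had 0.39 (0.38 to 0.41) with a Z-score of 45.8. The third was miR-290-3p with 0.33 (0.04 to 0.61), which rests on 183 and 238 reads and passed the fold by little, with a ratio of 1.255. miR-291a-3p stayed below the fold with 0.26 (0.20 to 0.31), and so did miR-295-3p with 0.14 (0.12 to 0.15). The ratio of miR-293-3p was −0.055 (−0.064 to −0.047). For miR-291b-3p it was −0.31 (−1.04 to 0.42), an interval that includes both directions. Under the 6 scalings of the libraries that were tried, counting the authors' own, miR-290-3p, miR-291a-3p, miR-292-3p and miR-294-3p were higher in SB in each. miR-293-3p was higher in 4 of the 6 and miR-295-3p in 5 of the 6. Scaled to reads on listed miRNAs, 5 members met the criteria as higher, against 23.8% of all listed, and the share of the higher ones among all listed miRNAs that met the criteria was 53.4%, against 33.7% in rpm. Scaled to miR-26a-5p, the reference of the study's qPCR, no member met the criteria as higher, against 9.38% of all listed, and the share among those that met the criteria was 17.96%. The fibroblast list given above was also higher in SB, and its part in these values was not tested.

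Between the SB and Dox libraries, where Smad2/3 phosphorylation is restored by Alk4*, 4 members met the criteria as lower in Dox and 1 as higher. Over all listed miRNAs the balance was the other way, with 17.9% lower and 41.7% higher. The median log2 ratio of the members was −0.33, against 0.38 over all listed. The largest difference was that of miR-292-3p, with a log2 ratio of −1.17 (−1.19 to −1.15), which is 0.446 of its SB level. miR-291a-3p followed with −0.89 (−0.96 to −0.83) and miR-294-3p with −0.67 (−0.68 to −0.65). For miR-290-3p, with 238 and 165 reads, the log2 ratio was −0.33 (−0.63 to −0.04), and it passed the fold by little, at 0.796 of its SB level. These 4 were lower in Dox under all 6 scalings. The member that met the criteria as higher was miR-293-3p, with 0.49 (0.48 to 0.50). Under the other scalings its ratio lay between 0.00 with quantile normalization and 0.43, and it passed the fold only when the libraries were scaled to miR-26a-5p. miR-295-3p had 0.19 (0.17 to 0.20), and its ratio was below 0 in 4 of the 6 scalings, down to −0.34. miR-291b-3p had 0.57 (−0.15 to 1.29), which at 31 and 40 reads does not tell a direction. In rpm 70.0% of all listed miRNAs that met the criteria were higher, and with reads on listed miRNAs 42.8%. Under the latter scaling 4 members were lower and none higher, against 31.5% and 23.5% of all listed. Here too the fibroblast list moved with miR-290-3p, miR-291a-3p, miR-292-3p and miR-294-3p, being lower in Dox, and its part was not tested.

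**Figure D2:**
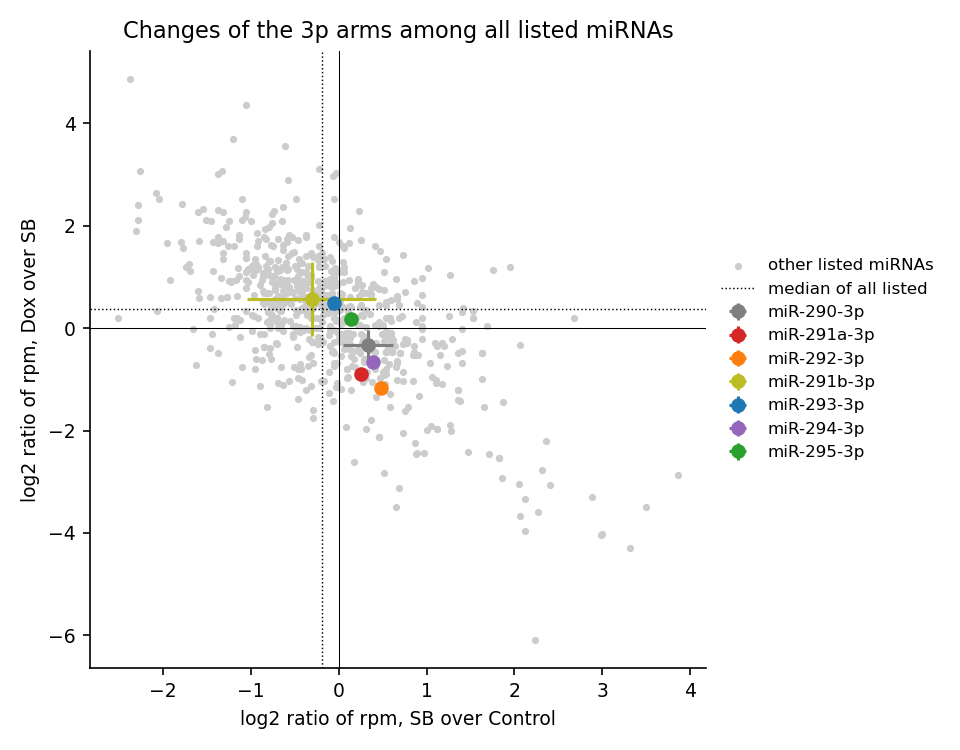
Log2 ratio of rpm for SB over Control (x axis) and for Dox over SB (y axis) of each listed miRNA, grey for the others and coloured for the 7 members, with exact 95% counting intervals on the members and dotted lines at the medians of all listed (−0.19 and 0.38). The axes share the SB library; miR-290-3p, miR-291a-3p, miR-292-3p and miR-294-3p lie to the right of zero and below it, while miR-293-3p lies near the crossing of the medians.

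**Figure D3:**
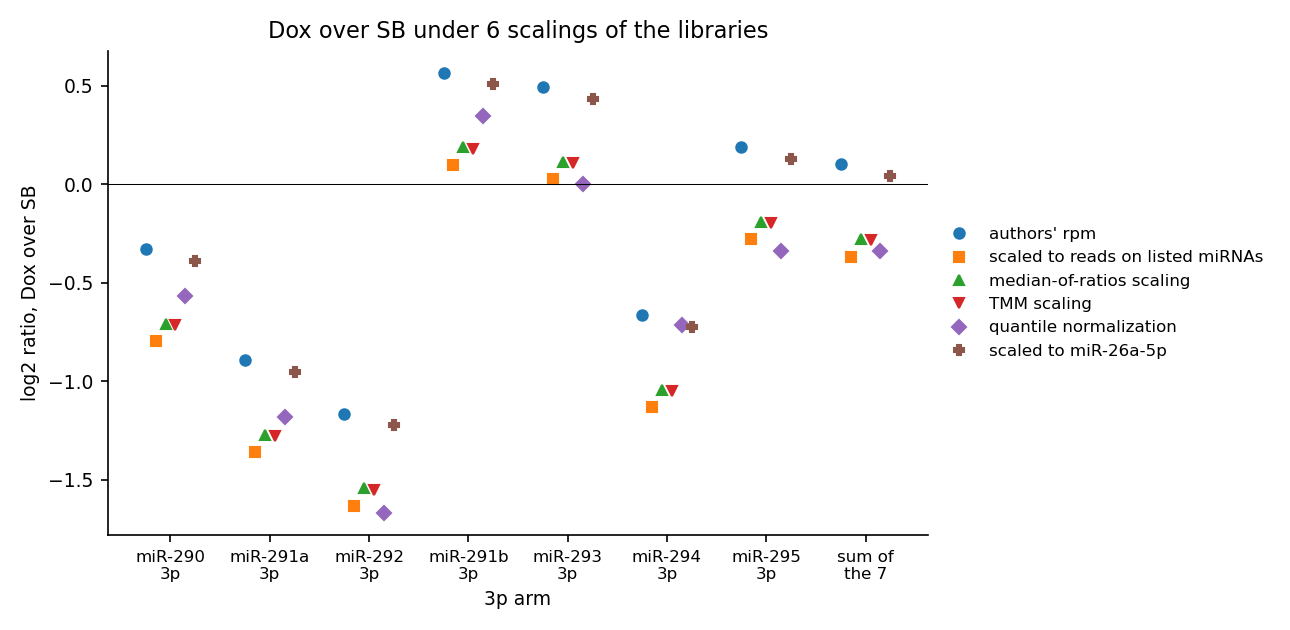
Log2 ratio of Dox over SB for each 3p arm and for the sum of the 7, with 1 symbol for each of the 6 scalings of the libraries. miR-290-3p, miR-291a-3p, miR-292-3p and miR-294-3p are below 0 under each, while miR-295-3p and the sum stand on both sides of 0.

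The pair of comparisons shares the SB library, so a high value in that library raises the first ratio and lowers the second. With that in view, 3 of the 7 members (miR-290-3p, miR-292-3p and miR-294-3p) met the criteria as higher in SB and again as lower in Dox, which 9.67% of all listed miRNAs did. Of these, miR-290-3p passed the fold by little both times, with ratios of 1.255 and 0.796. With a pseudocount of 1 rpm, 2 members were higher in SB and 3 lower in Dox. Scaled to miR-26a-5p, no member met the criteria as higher in SB, so none had this profile. None of the 7 met the criteria for the reverse, lower in SB and higher in Dox, which 20.9% of all listed did.

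The comparison of Dox with Control sets cells in which Smad2/3 phosphorylation was blocked and then restored against cells left untreated. In the Dox library 2 members were higher by the criteria, against 30.6% of all listed, and 2 were lower, against 19.8%. The lower ones were miR-292-3p, with a log2 ratio of −0.68 (−0.70 to −0.66), and miR-291a-3p, with −0.64 (−0.70 to −0.57). Of the 14 fibroblast miRNAs, 7 were lower and 2 higher by the criteria in this comparison, with a median log2 ratio of −0.61, and their part in these values was not tested. miR-294-3p was lower by less than the fold, with −0.27 (−0.29 to −0.25). miR-291a-3p, miR-292-3p and miR-294-3p were thus lower in Dox than in either of the other libraries, under all 6 scalings. The higher ones were miR-293-3p with 0.44 (0.43 to 0.45) and miR-295-3p with 0.33 (0.31 to 0.34). Both were above 0 under all 6 scalings, but neither passed the fold under any of the 5 others. The share of the higher ones among all listed miRNAs that met the criteria was 60.7% in rpm and lay between 38.0% and 50.1% under the 5 others. miR-290-3p was at −0.0025 (−0.31 to 0.31) and miR-291b-3p at 0.26 (−0.42 to 0.94).

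Ratios between members of 1 library are the same under any scaling by a single factor per library, which 5 of the 6 scalings are, and quantile normalization is not. By these ratios the 3p arms were not present in fixed proportions. miR-293-3p made up 55.6% of all 3p reads of the cluster in the Control library, 49.1% in the SB library and 64.4% in the Dox library. miR-292-3p made up 12.5%, 16.1% and 6.67%, and miR-294-3p 12.7%, 15.3% and 8.97%. miR-295-3p held a steadier share of 17.86%, 18.04% and 19.15%. For each read of miR-293-3p there were 0.225 reads of miR-292-3p (0.222 to 0.227) in Control, 0.327 (0.324 to 0.330) in SB and 0.104 (0.102 to 0.105) in Dox. Between SB and Dox this ratio differed by −1.66 on the log2 scale, and by −1.67 after quantile normalization.

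**Figure D4:**
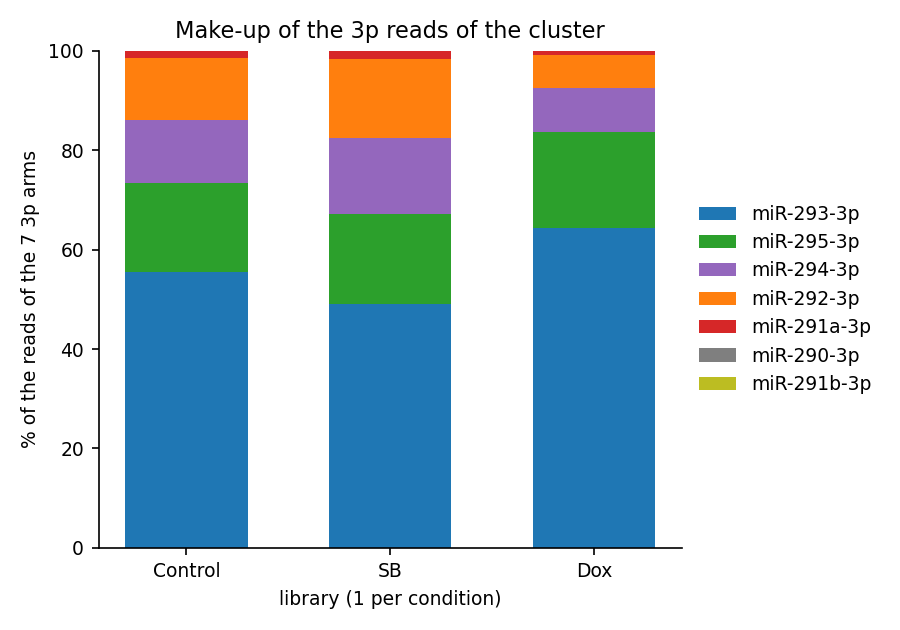
Make-up of the reads of the 7 3p arms in each library, as percent of their sum, 1 bar per library. miR-293-3p makes up 49.1% in SB and 64.4% in Dox, and miR-292-3p 16.1% and 6.67%; miR-290-3p and miR-291b-3p are too scarce to be seen.

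Members with the same seed differed in their ratios. miR-294-3p and miR-295-3p have the same seed and come from neighbouring hairpins 48 bases apart. In the Control library there were 0.709 reads of miR-294-3p (0.701 to 0.717) for each read of miR-295-3p, in the SB library 0.845 (0.837 to 0.854) and in the Dox library 0.468 (0.462 to 0.474). On the log2 scale this ratio differed by 0.25 between Control and SB and by −0.85 between SB and Dox. After quantile normalization the first difference was −0.0095, so that it was not seen there, and the second was −0.37. miR-291a-3p, the third with this seed, had 0.0837 reads (0.0816 to 0.0859) for each read of miR-295-3p in SB and 0.0396 (0.0382 to 0.0410) in Dox. The 3 miRNAs with this seed together had 11207 rpm in Control, 13323 rpm in SB and 11860 rpm in Dox, with log2 ratios of 0.25 for SB over Control and −0.17 for Dox over SB. As a share of the reads on listed miRNAs they made 3.96%, 5.52% and 3.55%, so that by this measure Dox was below Control. No order along the transcript separated those lower in Dox from the others, since miR-294-3p stands between miR-293-3p and miR-295-3p.

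The other arm of the same hairpin gives a comparison that is likewise free of any scaling by a single factor. In 4 hairpins the 3p arm was the main product in the Control library, with 82.1% of the reads of both arms for miR-293, 81.4% for miR-295, 79.6% for miR-294 and 73.4% for miR-292. In the other 3 the 5p arm prevailed. The 3p share was 15.9% for miR-291a, 16.2% for miR-291b (11.6 to 21.6) and 0.0468% for miR-290, whose 5p arm is the most abundant miRNA of the Control library with 35638 rpm.

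In all 7 hairpins the 3p share was higher in the SB library than in the Control library. It was 82.0% for miR-292, 87.4% for miR-294, 87.9% for miR-295, 83.7% for miR-293, 23.0% for miR-291a, 19.5% (13.6 to 26.5) for miR-291b and 0.116% for miR-290. In 6 hairpins the exact intervals of both libraries stood apart, and for miR-291b they overlapped. Among the 62 hairpins of the files with at least 100 reads of each arm in each library, of which 6 are of this cluster, 51.6% had a 3p arm that gained on the 5p arm. On the log2 scale, the 3p arms of the cluster gained on their 5p arms by a median of 0.73 over the 7, against a median of 0.037 over the 62. The gain was smallest in miR-293, 0.17, and largest in miR-290, 1.31. In miR-290 the 5p arm had a log2 ratio of −0.98, and the paper's qPCR of the same RNA gave this arm a smaller fall than sequencing. After quantile normalization, which was added after seeing the data, the 3p arm gained in 7 of 7 as well, with a median of 0.55, and the gain of miR-293 was 0.036.

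In all 7 hairpins the 3p share was then lower in the Dox library than in the SB library, which is shared by both comparisons. The difference was by far largest for miR-292, from 82.0% to 43.5% (43.1 to 43.9), so that the 5p arm became the more abundant one. The 5p arm of miR-292 had 1590 rpm in Control, 1345 rpm in SB and 3553 rpm in Dox. The 3p share was 9.41% for miR-291a, 10.5% (7.59 to 14.0) for miR-291b, 77.4% for miR-295, 82.0% for miR-294, 82.5% for miR-293 and 0.0446% for miR-290. The intervals in SB and Dox overlapped for miR-291b and stood apart for the 6 others. Over the 62 hairpins, 61.3% had a 3p arm that lost on the 5p arm. The median log2 change of the 3p arm less that of the 5p arm was −1.09 over the 7 and −0.25 over the 62. For miR-292 it was −2.57, and 2 of the 62 had a lower value. For miR-293 it was −0.12, the smallest in size of the cluster. After quantile normalization the value was below 0 in 7 of 7, with a median of −1.08. Between Dox and Control the 3p share was lower in 5 of the 7 hairpins, close to the 61.3% of the 62 in which the 3p arm lost. The largest difference was again that of miR-292, −29.9 percentage points. The share was higher for miR-293 and miR-294 by 0.478 and 2.40 percentage points, and for miR-290 and miR-291b the intervals of Dox and Control overlapped.

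**Figure D5:**
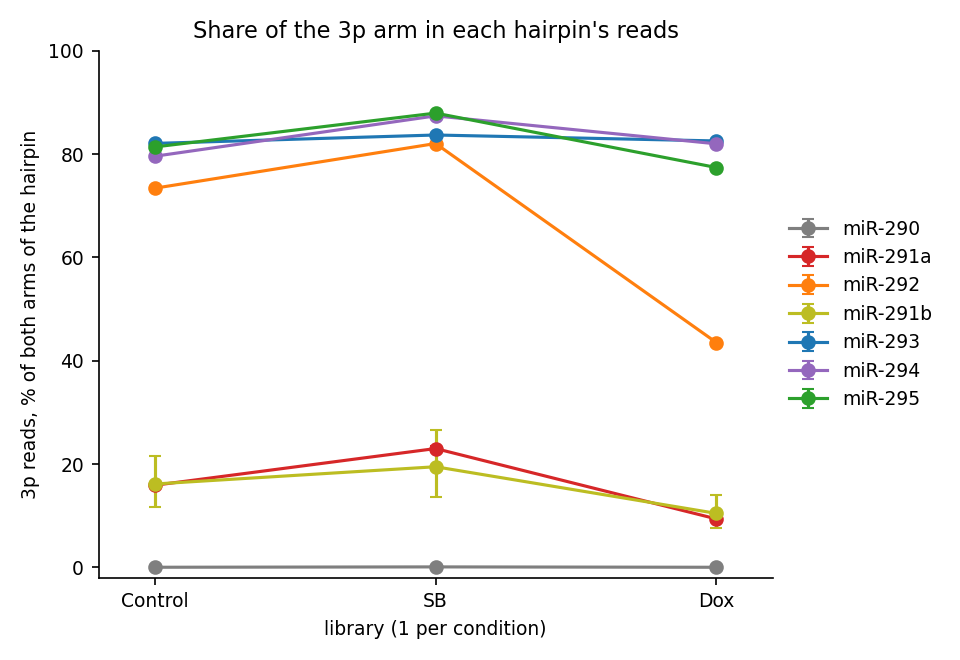
Reads of the 3p arm as percent of the reads of both arms of its hairpin in the Control, SB and Dox libraries, 1 library per condition; bars are exact 95% Clopper-Pearson intervals. Each hairpin is highest in SB, and miR-292 is at 82.0% in SB and 43.5% in Dox.

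The 3p arm of miR-292 had no RefSeq sequence, so reads that it may share with other miRNAs could not be checked. The shares of miR-291a and miR-291b are uncertain in another way, because their 5p arms are nearly the same. They are shown with the run that both share in capitals.
miR-291a-5p: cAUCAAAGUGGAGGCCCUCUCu
miR-291b-5p: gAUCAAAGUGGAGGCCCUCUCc
This run of 20 bases is longer than the shortest mapped reads, and reads within it could be assigned to either or to both. The 5 other 5p arms share at most 10 bases in a row with a listed miRNA of known sequence. Summed over the 7 hairpins, the 3p arms held 43.0%, 58.8% and 43.8% of the reads of the cluster in Control, SB and Dox, while both arms together made up 28.9%, 27.0% and 28.1% of the reads on listed miRNAs. Without the miR-290 hairpin, whose 5p arm dominates these sums, the 3p share was 76.1%, 81.4% and 72.9%. Of the 5p arms themselves, 5 of 7 met the criteria as lower in SB than in Control, against 30.2% of all listed miRNAs, and 6 of 7 as higher in Dox than in SB, against 41.7%.

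Outside the cluster the seed AAGUGCU was found in a pair of listed miRNAs with a RefSeq sequence, both of the miR-302 family.
miR-302b-3p: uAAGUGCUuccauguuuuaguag
miR-302d-3p: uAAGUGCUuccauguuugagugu
miR-302b-3p had 12.5 rpm in Control, 18.1 rpm in SB and 8.49 rpm in Dox, and miR-302d-3p had 27.2, 32.8 and 15.8 rpm. With miR-302a-3p and miR-302c-3p the family summed to 51.2, 62.5 and 30.2 rpm, and of the rpm of miRNAs known here to have this seed at least 99.6% came from the 3 members in each library. Of the 4, 2 were higher in SB than in Control by the criteria, against 15.3% of all listed, and 4 were lower in Dox than in SB, against 17.9%, with a median log2 ratio of −1.07 for Dox over SB. The seed of miR-291b-3p was shared by miR-350-5p, with 3.01, 2.47 and 3.23 rpm. Among the 517, which do not include miR-292-3p, no other miRNA had the seed of miR-290-3p or of miR-293-3p. The seed of miR-292-3p was not compared. The miR-17 family (miR-17-5p, miR-20a-5p, miR-20b-5p, miR-93-5p, miR-106a-5p and miR-106b-5p) shares AAGUGC shifted by 1 base and also acts on the cell cycle. Its sum was 1347, 1555 and 1414 rpm. Of the 6, 1 was higher and 0 lower in SB than in Control, where 15.3% and 30.2% of all listed were, and 2 were higher and 1 lower in Dox than in SB, where 41.7% and 17.9% were. Between Dox and Control 0 were higher and 1 lower, against 30.6% and 19.8%.

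Finally, the listed miRNAs most like each abundant member were taken by the distance between their pairs of log2 ratios (SB over Control and Dox over SB), over 3 libraries and 160 miRNAs with at least 100 rpm in a library. For miR-293-3p the nearest was miR-30e-5p, with 368.8, 359.7 and 513.2 rpm (distance 0.028), and for miR-295-3p it was miR-30a-5p, with 630.8, 720.8 and 827.2 rpm (0.055). For miR-291a-3p the nearest was let-7c-5p, a miRNA that accumulates in differentiated cells, with 4847, 6012 and 3077 rpm (0.092). miR-292-3p stood nearest to miR-181a-5p, with 138.6, 180.1 and 87.4 rpm (0.16), and miR-294-3p to miR-467a-5p, with 112.8, 161.5 and 104.5 rpm (0.13). With 3 values per miRNA such likeness is a description only.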

How the data were processed

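Per the paper's methods and the labels, the authors removed adaptors with the FASTX toolkit, dropped reads of 16 bases or fewer, and ran Bowtie 0.12.7 without mismatches against miRBase, mature sequences first and hairpins after. A read fitting more than 1 miRNA was given to the one equal or nearest in length, and to each where several were. The deposited values are rpm, for which the authors pooled both sequencing runs and divided by a total of each library. All 693 values of each library were whole multiples (within 0.01 read) of 1 step, equal to 0.0913 rpm (Control), 0.0881 rpm (SB) and 0.101 rpm (Dox), or divisors of 10955686, 11354692 and 9895513 reads, which are below the total reads stated for both runs. Each listed miRNA had at least 13 reads in all, and no member shared all its values with another miRNA.

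Ratios of rpm were computed without a pseudocount. Intervals are exact (Poisson for rpm, Clopper-Pearson for proportions of reads) and cover counting error only because the reads carry no molecular identifiers. Alternatives were 5 other scalings, fold thresholds of 1.5 and 2, a minimum of 100 reads, a pseudocount of 1 rpm, leaving out miR-293-3p, and 1 read added to each arm. The text names the members, their 5p arms, listed miRNAs with a member's seed, the miR-302 and miR-17 families, marker lists and the nearest miRNAs by ratio. Members and lists were chosen with earlier results of these data known. Python 3.11.15 and SciPy 1.17.1 were used. Sequences are from RefSeq (GRCm38.p6), positions from GENCODE and RefSeq.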

Additional observations from a re-analysis of the deposited data

How the results depend on the processing

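No paired analysis was possible because each condition had 1 library, and for the same reason no library could be left out. Depth limits miR-291b-3p (31 to 40 reads) and miR-290-3p (165 to 238 reads); the share of the 3p arm moved within its interval in all 21 values when 1 read was added to each arm. The summed level of the 7 3p arms moved under every scaling, and the cause was not tested. For reads on listed miRNAs, median of ratios, TMM, quantile normalization, miR-26a-5p and leaving out miR-293-3p, in this order, its log2 ratio was 0.35, 0.31, 0.33, 0.38, −0.12 and 0.32 for SB over Control, −0.37, −0.28, −0.28, −0.34, 0.043 and −0.41 for Dox over SB, and −0.012, 0.027, 0.046, 0.038, −0.077 and −0.095 for Dox over Control. The 3 members higher in SB than in Control (15.3% of all listed) became 5 with reads on listed miRNAs (23.8%) and with TMM (23.2%), and 0 with miR-26a-5p (9.38%) and with fold thresholds of 1.5 (11.1%) and 2 (7.07%). The 1 member higher in Dox than in SB became 0 under the 4 scalings other than miR-26a-5p (23.5% to 29.4% of all listed) and under both fold thresholds (34.9% and 22.2%), and the 4 lower became 1 with a fold of 2 (9.67%). The 2 members higher in Dox than in Control became 0 under all 5 scalings (19.2% to 24.4%) and both fold thresholds (22.8% and 13.6%), and the 2 lower became 0 with a fold of 2 (8.08%). In the other 34 recounts the number of members stayed within 1.5 times the value reported. Of the members that met the criteria in rpm, miR-293-3p had a ratio of 0 for Dox over SB after quantile normalization. Quantile normalization of the ratios within a library, chosen after seeing the data, reversed 3 of 39 differences: miR-294-3p over miR-295-3p (−0.0095) and miR-291a-3p over miR-295-3p (−0.13) for SB over Control, and the 3p over the 5p arm of miR-293 for Dox over Control (−0.24, log2 scale).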
